A study of Mus musculus with 36 samples.

Results

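A set of 9 genes of the differentiated kidney tubule was followed, of 21699 genes in each count table. The samples were gonads of mouse embryos with and without the miR-17~92 microRNA cluster. They are Cdh16, Keg1, Hnf4a, Slc6a18, Slc34a1, Fxyd2, Lrp2, Cubn and Amn. The set was chosen by name on the values of Cdh16, Slc6a18 and Keg1, which had been seen to be higher in mutant than in control gonads at E12.5 (embryonic day), so the difference between knockout (KO) and control at that stage is given below as a description and not as a test. All 9 genes were found in the tables of both stages, and all 9 passed the filter on low counts. At E12.5, Cdh16, Slc6a18, Slc34a1, Keg1, Hnf4a and Amn passed it only through their levels in KO libraries.

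RNA was sequenced from 4 genotypes, XX control, XX KO, XY control and XY KO, with 3 libraries for each genotype at E11.5 and 3 at E12.5. KO embryos carried Tg(CAG-cre)1Nagy and miR-17~92 del/del, a deletion made by a Cre recombinase under the broadly active CAG promoter, so the cluster was lost throughout the embryo and not in the gonad alone. The labels call the controls WT, and whether they carried the transgene or floxed alleles is not given in the sources used here. Each library pooled 2 pairs of gonads. At E11.5 the tissue was the gonad together with the adjoining mesonephros, and at E12.5 it was the gonad alone, with another library kit at each stage, so the stages are set side by side and not tested against each other. Total counts ran from 17150620 to 34077443 per library at E11.5 and from 11877379 to 44155275 at E12.5. In all 24 libraries the levels of Xist and Ddx3y matched the labelled sex. Mir17hg, the host transcript of the cluster, averaged 33.8 CPM (reads per 1000000 of the library) in the XY controls and 145.6 CPM in the XY KO libraries at E11.5, but a count over the whole gene does not separate the deleted stretch and is no check of the deletion. Markers of gonadal somatic cells summed to between 1556 and 1966 CPM in the E12.5 libraries, and Sertoli cell markers to between 1585 and 2170 CPM in XY controls against 20.0 to 54.6 CPM in the other 3 genotypes.

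The proximal tubule is the stretch of the nephron that takes back most of what the glomerulus filters. Its cells carry a brush border of sodium-coupled transporters and a large endocytic receptor complex that recovers filtered proteins and vitamins, and Hnf4a is a transcription factor that these cells share with liver and gut. The mesonephros, the transient kidney that lies against the gonad in the embryo, forms tubules with a proximal part as well. In bulk RNA, fewer cells of a type and less RNA of a gene in each cell cannot be told apart.

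Because the KO embryos lack a microRNA cluster, its seeds and the matches to them in the members are shown first. The cluster encodes 6 microRNAs of 4 seed families on mouse chromosome 14 (GRCm38.p6, plus strand, sequences from RefSeq). One strand per family is printed 5′ to 3′, with the seed, bases 2 to 8, in capitals. The miR-17 family was taken from chr14:115043684-115043706, miR-18 from chr14:115043867-115043889, miR-19 from chr14:115044048-115044070 and miR-92 from chr14:115044476-115044496.
mmu-miR-17-5p: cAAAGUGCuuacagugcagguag
mmu-miR-18a-5p: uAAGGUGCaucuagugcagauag
mmu-miR-19a-3p: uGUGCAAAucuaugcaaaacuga
mmu-miR-92a-3p: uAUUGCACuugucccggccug
The 2 microRNAs not printed, mmu-miR-20a-5p and mmu-miR-19b-3p, have the seeds of miR-17 and miR-19.

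Among the 9 members, 3 held a match of 7 bases to one of these seeds in the 3′ untranslated region of the transcript with the longest coding sequence, and 6 held none. The matches are printed on the sense strand with the bases that pair with the seed in capitals, together with the 10 bases on each side.
Keg1, miR-19 match, position 673 of 720: tggagcagtaTTTGCACacacaaataa
Lrp2, miR-19 match, position 38 of 1305: gacactcactTTTGCACatatattttt
Hnf4a, miR-18 match, position 2648 of 2814: agatcaatctGCACCTTcctgtggttg
Among genes whose untranslated region was of like length, 8.01% held a miR-19 match for Keg1, 13.1% for Lrp2 and 16.5% a miR-18 match for Hnf4a. A match is a string of letters and not a shown site. Cdh16, Slc6a18, Slc34a1, Fxyd2, Cubn and Amn held no such letters there.

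The genes lie apart in the genome (GRCm38, GENCODE models). Cdh16 is on chromosome 8 from 104601911 to 104624396, Keg1 on chromosome 19 from 12695786 to 12719902, Fxyd2 on chromosome 9 from 45399669 to 45410278 and Amn on chromosome 12 from 111271095 to 111276426. Chromosome 13 holds Slc34a1 from 55398187 to 55415592 and Slc6a18 from 73661752 to 73678023. Chromosome 2 holds Cubn from 13276338 to 13491813, Lrp2 from 69424340 to 69586065 and Hnf4a from 163506808 to 163572910. Exons of Cubn, Keg1 and Slc34a1 overlap a gene on the opposite strand (Gm13270, Gm15962 and Pfn3), and since the strand setting of the counting is not given in the sources used here, reads of those partners may be included.

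At E12.5, Cdh16, Slc6a18, Slc34a1, Keg1 and Hnf4a were at or near zero in control libraries and present in KO libraries of both sexes. Lrp2, Cubn, Fxyd2 and Amn had reads in every control library. Whether the reads came from the gonad itself or from adjoining mesonephros left on it was not tested. Cdh16, a cadherin of kidney epithelium, had 0.46, 0.66 and 1.31 CPM in the 3 XX controls and 14.8, 59.6 and 76.2 CPM in the 3 XX KO libraries. In XY gonads it had 0.44, 0.13 and 0.00 CPM in controls and 4.50, 24.3 and 49.1 CPM in KO. The lowest KO library of either sex lay above the highest control library, and KO libraries differed widely among themselves. The fitted log2 fold change, KO minus control, was 5.99 ± 0.95 (SE) in XX and 6.85 ± 1.12 in XY gonads, and it rests on 9 to 21 reads per library in XX controls and 0 to 10 in XY controls.

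**Figure D1:**
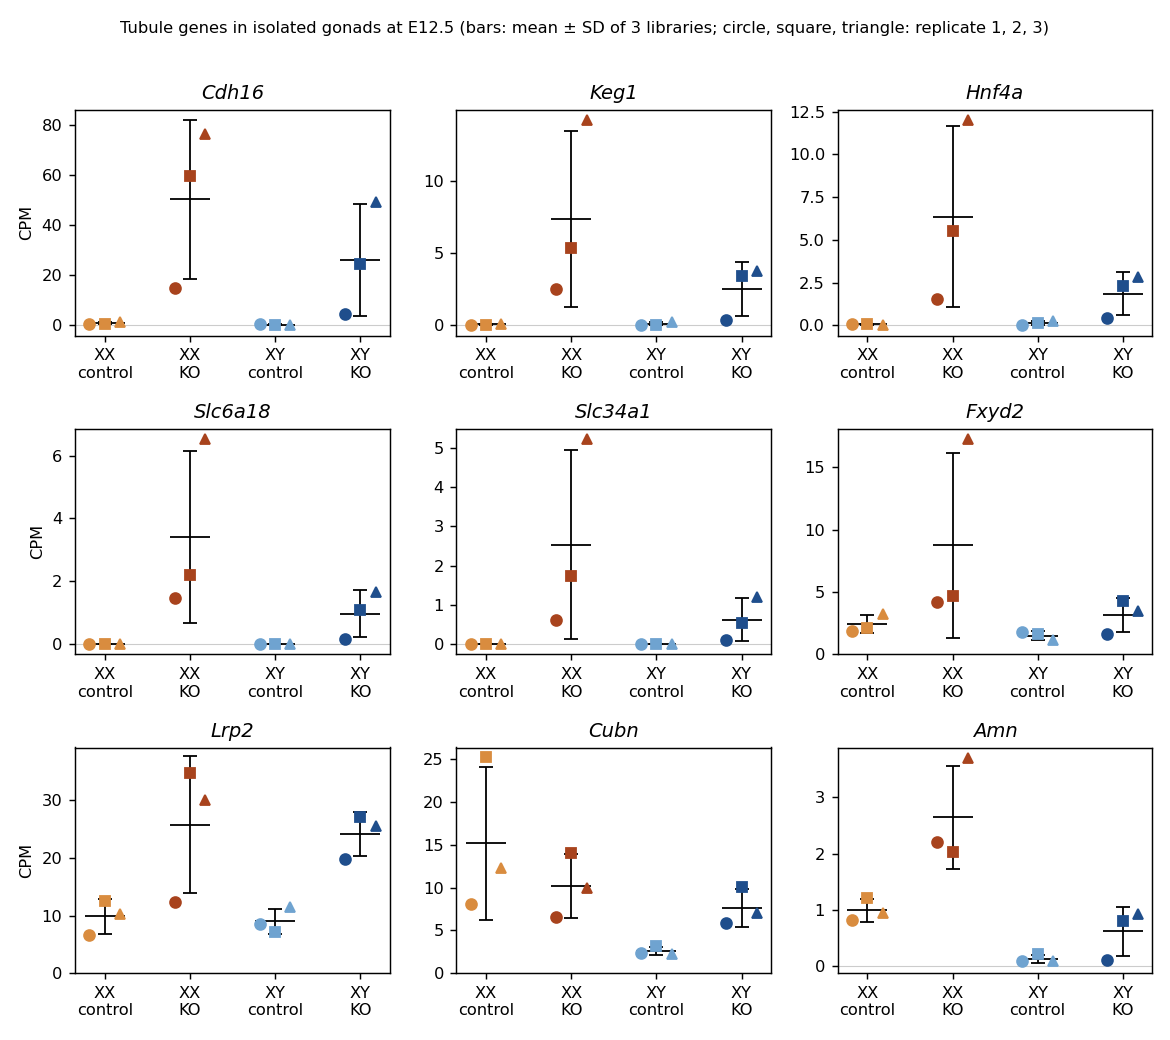
The 9 panels plot the level (CPM, linear axis from 0) of each gene in the 12 libraries of isolated gonads at E12.5, by genotype, with a symbol for each library and bars for mean ± SD of 3 libraries. In 7 of the 9 panels, not the same 7 in each sex, all KO libraries lie above all controls of their sex. Cubn in XX gonads shows KO libraries of 6.57 to 14.0 CPM that overlap the controls, at 8.04 to 25.2 CPM.

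The 4 genes with no more than 3 reads in any control library at E12.5 were Slc6a18, Slc34a1, Keg1 and Hnf4a. Slc6a18, which encodes a transporter of neutral amino acids in the tubule brush border, had no read in the 6 control libraries. It had 45, 97 and 180 reads in XX KO (1.48, 2.19 and 6.53 CPM) and 3, 16 and 61 reads in XY KO (0.18, 1.08 and 1.66 CPM). Slc34a1, the sodium-phosphate cotransporter that recovers phosphate, likewise had 0 reads in all 6 controls. Its KO libraries had 0.62, 1.74 and 5.23 CPM in XX and 0.12, 0.54 and 1.20 CPM in XY gonads. A count of 0 allows up to 3 reads, on average 0.164 CPM in XX controls and 0.174 CPM in XY controls. Against that floor, the mean level of Slc6a18 was at least 20.7-fold higher in XX KO and at least 5.60-fold higher in XY KO, and that of Slc34a1 at least 15.4-fold and 3.56-fold higher. The first XY KO library had 3 reads of Slc6a18 and 2 of Slc34a1, so it was itself at the floor.

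Keg1, a kidney gene of the glycine N-acyltransferase family, had 0, 0 and 1 reads in XX controls and 0, 0 and 2 in XY controls. In KO gonads it reached 2.46, 5.34 and 14.3 CPM in XX and 0.29, 3.37 and 3.76 CPM in XY libraries, at least 44.7-fold and 14.3-fold above the floor on average. Hnf4a had 0 to 2 reads in XX controls and 0 to 3 in XY controls. It had 1.51, 5.52 and 12.01 CPM in XX KO and 0.41, 2.29 and 2.81 CPM in XY KO, at least 38.6-fold and 10.6-fold above the floor. For both genes every KO library lay above every control of its sex, and the first library was the lowest in each sex.

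The genes with reads in every control library were Fxyd2 and the 3 of the endocytic receptor complex. Lrp2 encodes megalin, Cubn encodes cubilin, and Amn encodes amnionless, which carries cubilin to the cell surface. Lrp2 had 6.70, 12.6 and 10.3 CPM in XX controls and 12.3, 34.8 and 30.1 CPM in XX KO. In XY gonads it had 8.48, 7.24 and 11.46 CPM in controls and 19.8, 27.1 and 25.6 CPM in KO. The groups overlapped in XX and not in XY gonads, with log2 fold changes of 1.39 ± 0.33 (2.61-fold) and 1.43 ± 0.33 (2.70-fold).

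Cubn was the only member with opposite signs in the 2 sexes. It had 2.35, 3.16 and 2.26 CPM in XY controls and 5.84, 10.1 and 7.04 CPM in XY KO, a log2 fold change of 1.54 ± 0.40 with no overlap. In XX gonads it had 8.04, 25.2 and 12.3 CPM in controls and 6.57, 14.0 and 9.91 CPM in KO. The XX groups overlapped, and the log2 fold change was -0.58 ± 0.36. Whether the effect of the deletion on Cubn differed between the sexes was not tested, since the rule behind the gene set used both comparisons.

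Amn had 0.82, 1.21 and 0.94 CPM in XX controls and 2.20, 2.04 and 3.70 CPM in XX KO, which did not overlap (log2 fold change 1.40 ± 0.46). In XY gonads it had 0.09, 0.22 and 0.09 CPM in controls and 0.12, 0.81 and 0.93 CPM in KO. One XY KO library fell within the range of the controls, and the log2 fold change was 2.19 ± 0.67 on 1 to 5 reads in each control. Fxyd2, the gamma subunit that tunes the sodium pump of the tubule, had 1.91, 2.12 and 3.25 CPM in XX controls and 4.20, 4.73 and 17.3 CPM in XX KO (log2 fold change 1.85 ± 0.50). In XY gonads it had 1.78, 1.60 and 1.13 CPM in controls and 1.64, 4.32 and 3.52 CPM in KO, and the groups overlapped (1.04 ± 0.53).

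As a description, 8 of the 9 genes passed a false discovery rate (FDR) of 0.05 as higher in XY KO, where 10.3% of all 14348 genes tested did, and the exception was Fxyd2. In XX KO 7 passed, where 3.42% of all genes did, and the exceptions were Cubn and Amn. All KO libraries lay above all controls for 7 of the 9 in XY gonads (19.8% of all genes) and for 7 of the 9 in XX gonads (13% of all genes). With genes at the floor set to their lower bounds, the median log2 fold change over the 9 was 2.19 in XY and 3.94 in XX gonads, beside -0.01 and -0.00 over all genes tested. Nothing is read from these counts, since the comparison chose the genes. The XX counts rest on single controls. Without the first XX control library 0 of the 9 passed, and 35 genes in all instead of 755. Without the second XX control library 2 of the 9 passed, and without the third XX KO library 4. In XY gonads the lowest count was 4, without the first control library.

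**Figure D2:**
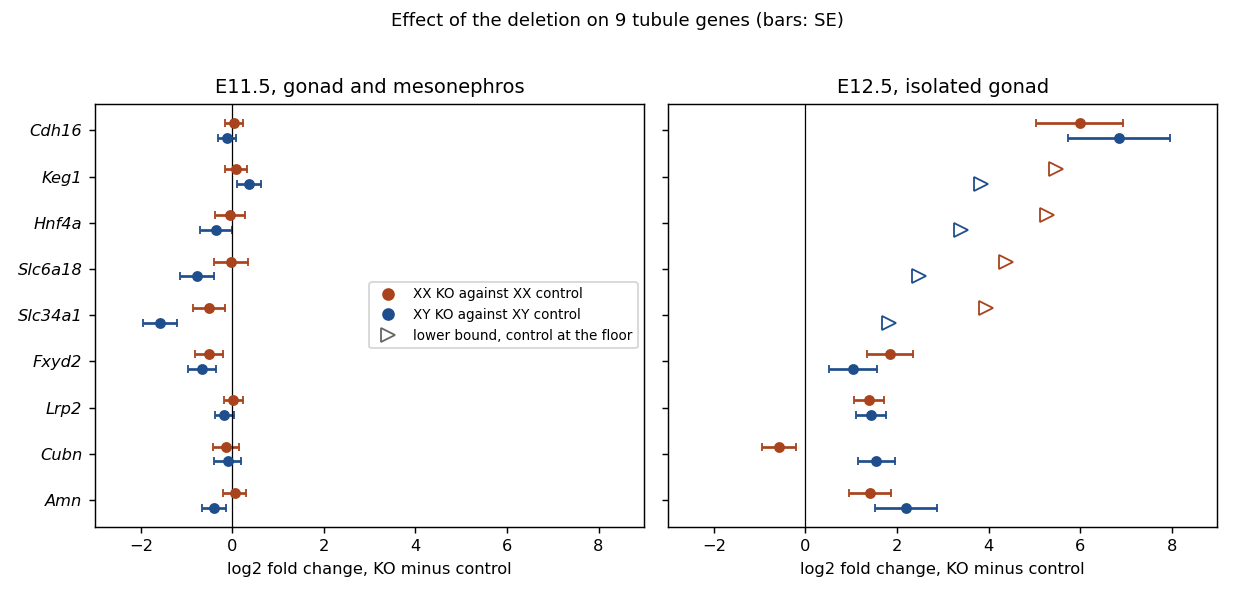
Log2 fold changes (KO minus control, x axis) of the 9 genes (y axis) at E11.5 on the left and E12.5 on the right, with XX and XY gonads in separate colours, points for fitted values with bars of 1 SE, and open triangles for lower bounds where control libraries were at the floor. The E11.5 values lie between -1.58 and 0.36, and at E12.5 Cubn in XX gonads, at -0.58, is the only value below 0.

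Per kilobase of exon, Cdh16 was the most abundant member in XX KO gonads at E12.5, with a mean of 13.2 CPM per kb, followed by Fxyd2 with 2.18 and Lrp2 with 1.54 CPM per kb. Amn (1.44), Hnf4a (1.31), Keg1 (1.30), Slc6a18 (0.770), Cubn (0.680) and Slc34a1 (0.541 CPM per kb) followed. Apart from Cdh16, neighbours in this order differed by less than 1 SD of their libraries.

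Within each sex, levels in the KO libraries of E12.5 rose from the first to the third for Cdh16, Slc6a18, Slc34a1, Keg1 and Hnf4a. Lrp2, Cubn, Fxyd2 and Amn did not keep this order in both sexes. The third XX KO library had the highest level of 7 genes and the second XX KO library that of Lrp2 and Cubn. The first XY KO library had the lowest level of 8 genes, all but Lrp2. Between the highest and the lowest KO library the level differed 48.8-fold for Keg1, 44.7-fold for Slc34a1, 37.3-fold for Slc6a18, 31.7-fold for Amn, 29.4-fold for Hnf4a and 17.0-fold for Cdh16. It differed 10.6-fold for Fxyd2, 2.81-fold for Lrp2 and 2.39-fold for Cubn. Summed over the 9 genes, the level was 46.2, 130 and 175 CPM in XX KO and 32.9, 73.9 and 95.6 CPM in XY KO, against 18.0 to 41.8 CPM in XX controls and 12.48 to 15.4 CPM in XY controls.

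The level of a marker of the nephric duct did not keep the same order over these libraries. Wnt9b, a signal made by the duct epithelium that was picked out here after its values had been seen, had 0.3, 7.2 and 2.2 CPM in XX KO and 0.2, 2.6 and 8.3 CPM in XY KO. The ratio of Cdh16 to Wnt9b ran from 5.88 to 45.1 over the 6 KO libraries at E12.5, and from 1.39 to 2.68 over the 12 libraries with mesonephros at E11.5. The highest ratio, in the first XX KO library, rests on only 0.3 CPM of Wnt9b. Tissue and library kit differed between the stages, so a difference in these ratios was not tested. The ratio of Keg1 to Cdh16 was 0.0649 to 0.187 in the former and 0.0333 to 0.0558 in the latter. The ratio of Slc34a1 to Cdh16 had overlapping ranges, 0.0222 to 0.0685 and 0.0097 to 0.0792.

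**Figure D3:**
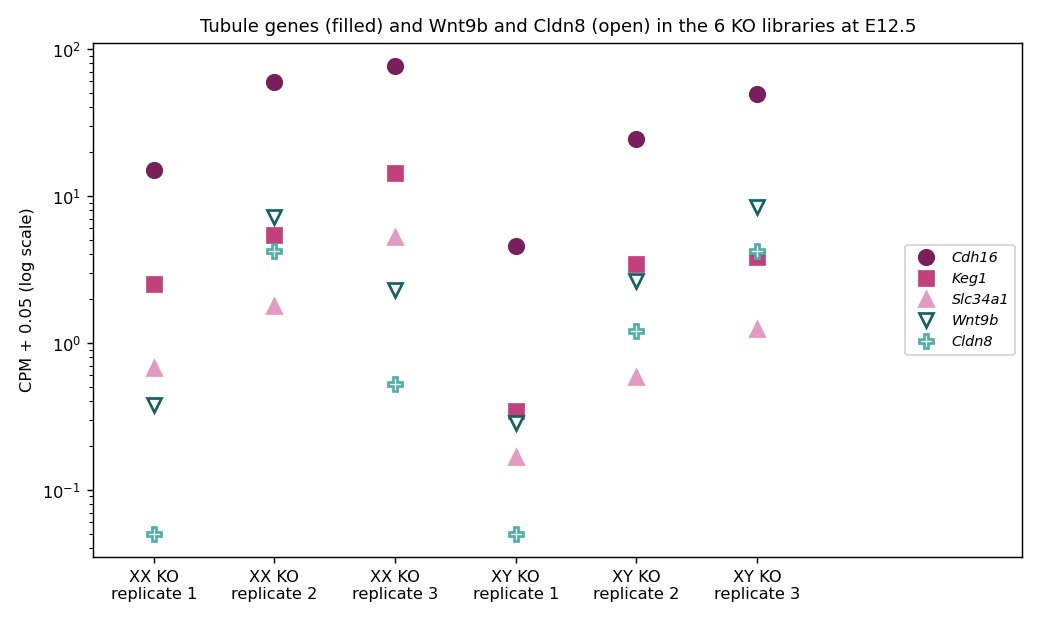
Levels (CPM + 0.05, log axis) in each of the 6 KO libraries of isolated gonads at E12.5, with filled symbols for the tubule genes Cdh16, Keg1 and Slc34a1 and open symbols for Wnt9b and Cldn8, which is expressed in the collecting and distal tubule. The filled symbols are highest in the third XX KO library, and the open ones in the second XX KO and the third XY KO library.

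When the control gonads of E12.5 were compared by sex, a comparison that the choice of genes did not use, 2 of the 9 members were higher in XX gonads (edgeR quasi-likelihood test, FDR under 0.05), where 11.4% of all genes were. Cubn was higher in ovaries than in testes, with a log2 difference of 2.54 ± 0.41 (5.80-fold, FDR = 0.0003), and all 3 XX libraries lay above all 3 XY libraries. Amn was higher by 2.80 ± 0.65 (6.98-fold, FDR = 0.0052), again without overlap, from few reads in XY controls. Among the controls only the second XX library had 1 CPM or more of Amn. Amn thus met the filter on low counts through the KO libraries, and its call depends on them. Lrp2, the partner of cubilin, did not pass, with a difference of 0.14 ± 0.34 (FDR = 0.832), nor did Fxyd2 with 0.65 ± 0.54 (FDR = 0.455). Slc6a18, Slc34a1, Keg1 and Hnf4a were at the floor in both sexes. Germ cell markers summed to 856, 1625 and 986 CPM in the XX controls, in the same order of libraries as Cubn, Amn and also Lrp2. In the XY controls they summed to 883, 907 and 1168 CPM, an order that neither Cubn nor Amn shared. Across the 12 libraries of E12.5, Pearson's r of Cubn was 0.04 with the germ cell gene Dazl and 0.19 with Ddx4, and across those of E11.5 it was 0.53 and 0.60. These libraries share genotype groups, and the part of germ cells in the levels of Cubn was not tested. With a fit to the 6 control libraries alone, only 3 of the members, Lrp2, Cubn and Fxyd2, could be tested and 1 passed. Amn could not be tested there.

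When the KO gonads of E12.5 were compared by sex, 0 of the 9 members passed FDR 0.05 in edgeR, where 0.153% of all genes did. At an unadjusted p under 0.05 there were 6, and DESeq2 called 1, Amn. All 9 estimates were higher in XX KO. Amn differed by 2.01 ± 0.47 on the log2 scale (4.04-fold, FDR = 0.235) and Fxyd2 by 1.46 ± 0.49 (2.75-fold, FDR = 0.235), whereas Lrp2 differed by 0.09 ± 0.31 (FDR = 0.884) and Cubn by 0.42 ± 0.37 (FDR = 0.517). Without the second XX KO library, Amn (2.17, FDR = 0.0214) and Fxyd2 (1.76, FDR = 0.0377) passed, with 1828 genes called instead of 22.

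At E11.5, with the mesonephros in the sample, all 9 genes were expressed in all 12 libraries and none passed as higher in KO. Cdh16 had 88.1, 99.6 and 100.2 CPM in XX controls, 85.6, 117.9 and 93.1 CPM in XX KO, 63.5, 107.0 and 65.2 CPM in XY controls and 62.1, 68.5 and 88.4 CPM in XY KO. The 4 genotypes overlapped, and the log2 fold change in XY gonads was -0.11 ± 0.20. Hnf4a had means of 16.8 ± 2.73 CPM (SD, n = 3) in XX controls, 16.3 ± 3.44 in XX KO, 10.9 ± 6.87 in XY controls and 8.53 ± 1.91 in XY KO. Per kilobase, Cdh16 again led in XX controls with 25.3 CPM per kb, followed by Lrp2 (3.82), Hnf4a (3.49) and Fxyd2 (2.95), with the other 5 at 0.517 to 1.55 CPM per kb.

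**Figure D4:**
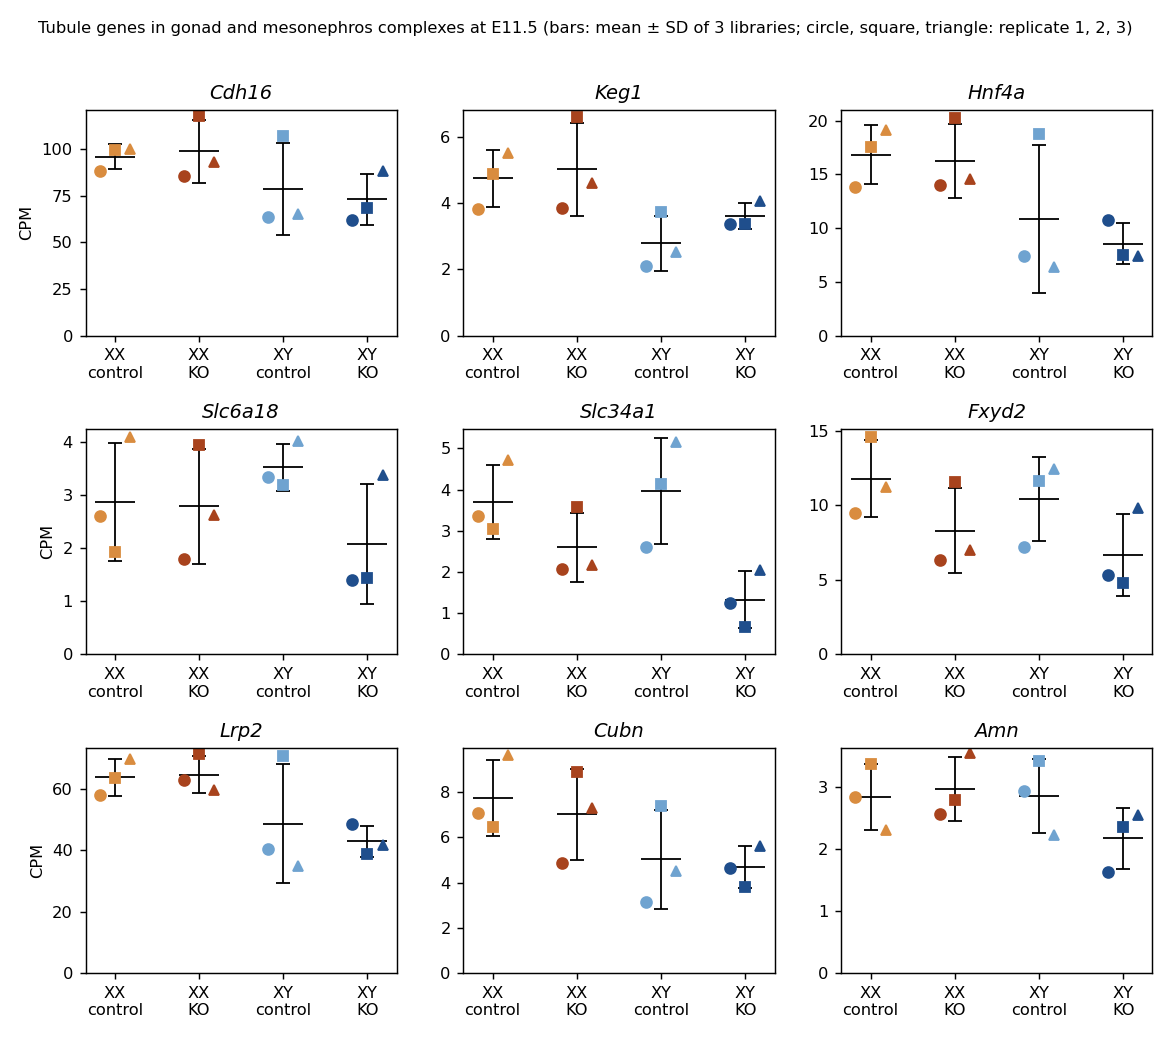
The 9 panels plot the level (CPM, linear axis) of each gene in the 12 libraries of gonad with mesonephros at E11.5, by genotype, with a symbol for each library and bars for mean ± SD of 3 libraries. The groups overlap in most panels, and Slc34a1 in XY KO, at 0.67 to 2.05 CPM, lies below its controls, at 2.62 to 5.16 CPM.

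In XY gonads at E11.5, 1 of the 9 members changed between KO and control (FDR under 0.05), and it was lower, where 6.81% of all 14217 genes tested were lower. Slc34a1 had 2.62, 4.13 and 5.16 CPM in XY controls and 1.26, 0.67 and 2.05 CPM in XY KO, with no overlap. It fell by 1.58 ± 0.37 on the log2 scale, to 0.334 of its control level (FDR = 0.0123). The exact two-sided permutation test on these 3 against 3 libraries gave p = 0.1, the smallest it can give. The call was lost without the first XY KO library (FDR = 0.0547) or without the second (FDR = 0.0535). The other 8 did not pass. Slc6a18 was at -0.78 ± 0.38 (FDR = 0.185), Fxyd2 at -0.66 ± 0.30 (FDR = 0.171), Amn at -0.41 ± 0.26 and Keg1 at 0.36 ± 0.26. Lrp2 (-0.18 ± 0.21), Cubn (-0.11 ± 0.30) and Hnf4a (-0.35 ± 0.35) lay about 1 SE or less from 0. Without the third XY KO library, Slc6a18 (FDR = 0.0454) and Fxyd2 (FDR = 0.0462) also passed as lower, so that 3 members did.

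In XX gonads at E11.5, 0 of the 9 members passed in edgeR, 0 at an unadjusted p under 0.05 and 0 in DESeq2, where edgeR called 3.27% of all genes. Fxyd2 (-0.51 ± 0.30, FDR = 0.467) and Slc34a1 (-0.50 ± 0.35, FDR = 0.564) were the farthest from 0, and the other 7 lay between -0.14 and 0.08. The difference of the deletion's effect between XY and XX gonads, tested as an interaction, passed for 0 of the 9 and for 0.0352% of all genes. For Slc34a1 this difference was -1.08 ± 0.50 (FDR = 0.388), the 1 member at an unadjusted p under 0.05, and DESeq2 called 0. The effect on Slc34a1 was therefore not shown to differ between the sexes.

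Between the sexes at E11.5, 0 of the 9 passed in controls (0.886% of all genes) and 0 in KO (0.0844% of all genes). In controls Keg1 was the 1 member at an unadjusted p under 0.05, higher in XX by 0.76 ± 0.26 (FDR = 0.161), and in KO there were 4, with all 9 estimates higher in XX. DESeq2 called 0 in either comparison. Lrp2 in XX KO exceeded XY KO by 0.58 ± 0.21 (FDR = 0.217), Hnf4a by 0.92 ± 0.35 (FDR = 0.235) and Slc34a1 by 0.97 ± 0.37 (FDR = 0.232). The second XY control library stood apart at this stage. Its 9 genes summed to 230 CPM, beside 133 and 137 CPM in the other XY controls, and its nephric duct genes to 1028 CPM beside 791 and 751 CPM. Without it, 5 members were higher in XX than XY controls (Cdh16, Keg1, Lrp2, Cubn and Hnf4a, FDR between 0.00158 and 0.0240), with 2495 genes called instead of 126, and Lrp2 and Hnf4a were higher in XX KO than XY KO. That library was singled out by the levels of these same genes, so the calls without it are a description and not a test.

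Genes of the proximal tubule outside the members were taken from a list of 47. Of these, 46 were in the tables, 27 were tested at E11.5 and 24 at E12.5. At E11.5, 3 were lower in XY KO (Gatm 2.84-fold, Acsm3 1.99-fold and Ggt1 1.70-fold) and none was higher, and in XX KO none of 27 passed. At E12.5, in the comparison that chose the members, 7 were higher and 5 lower in XY KO and 5 were higher and none lower in XX KO, with a median log2 fold change of 0.17 in XY and 0.51 in XX gonads. Beside these and the list counts below, 6.81% of all genes were lower in XY KO and 3.27% were called in XX KO at E11.5. At E12.5, 10.3% of all genes were higher in XY KO and 3.42% in XX KO. The shares that were lower at E12.5 are not given here, and no list was tested as a set. Glyat, a glycine N-acyltransferase like Keg1, had no read in controls and was at least 8.44-fold higher in XX KO and 2.48-fold higher in XY KO. Vil1, which encodes the brush border protein villin, was higher in both (2.48 ± 0.49 in XX and 1.81 ± 0.53 in XY gonads). The 5 that were lower in XY KO were Miox, Fbp1, Gatm, Dpep1 and Mme. Of these, Gatm, which makes the precursor of creatine, had 350 CPM in XY controls, 68.4 in XY KO and 60.0 in XX controls, and Mme 256, 150 and 95.5 CPM. Gatm and Mme were thus expressed in control gonads, at higher levels in XY than in XX controls, whereas Slc6a18, Slc34a1, Keg1 and Hnf4a were at the floor there. The 4 most abundant genes of the list in these gonads, Mme, Gatm, Anpep and Slc9a3r1, had log2 fold changes between -0.13 and -0.08 in XX KO, none past the threshold.

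Of 10 genes whose proteins work with megalin and cubilin in endocytosis, 0 passed at E11.5 in either sex, and of 9 tested at E12.5 only Folr1, a folate receptor, passed in XY KO, where it was lower (by 0.88), and none in XX KO. The most abundant partners were Dab2, an adaptor that binds the tail of megalin, at 0.53 ± 0.19 in XX KO (FDR = 0.107) and 0.15 ± 0.19 in XY KO (FDR = 0.628), and Lrpap1, its chaperone, at 0.34 ± 0.13 (FDR = 0.142) and -0.27 ± 0.13 (FDR = 0.175). Of 20 genes of the nephric duct and early tubule, 1 was higher and 1 lower in each sex at E11.5. At E12.5, 10 were higher and 5 lower in XY KO, and 5 higher and 1 lower in XX KO. Those higher in XX KO included Krt19, Pax8, Pkhd1 and Wnt9b, whereas Emx2, Spint2, Cdh1 and Epcam, the most abundant of the list, lay between -0.52 and 0.55 and did not pass. Of 10 distal tubule genes only 2 could be tested at E12.5, with Pou3f3 higher in XX KO and Cldn8 in XY KO. At E11.5, Slc12a1, the transporter of the loop of Henle, was lower in KO of both sexes, from 18.3 ± 4.87 to 3.45 ± 2.09 CPM (SD, n = 3) in XX and from 16.5 ± 4.10 to 2.75 ± 0.916 CPM in XY gonads. Its log2 fold changes were -2.40 ± 0.42 (FDR = 0.0108) and -2.58 ± 0.43 (FDR = 0.00327).

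Other cell types were followed by their markers beside the tubule genes. Yolk sac endoderm and fetal liver both express Hnf4a, and yolk sac endoderm also expresses Lrp2, Cubn and Amn. Of 4 tested genes of these 2 tissues, Trf was higher in both sexes at E12.5 (0.78 in XX and 0.72 in XY gonads) and Afp in XX. The list of 15 summed to 33.2 to 52.7 CPM in XX KO against 17.0 to 28.2 CPM in XX controls, and to 32.8 to 35.0 against 20.7 to 24.3 CPM in XY gonads. At E11.5, 1 was lower in XX KO and 2 in XY KO. Of 8 podocyte genes, 7 were tested, of which 4 were higher and 3 lower in XY KO at E12.5 and none passed in XX KO. At E11.5, 1 was higher in XY KO and 1 lower in XX KO. Of 7 gonadal somatic genes, 1 was higher and 3 lower in XY KO and 1 higher in XX KO at E11.5, and 2 were higher and 2 lower in XY KO and 1 higher in XX KO at E12.5. The 7 Sertoli genes were all lower in XY KO at both stages and none passed in XX KO. Of 6 pre-granulosa genes, 2 were higher and 1 lower in XY KO and 2 lower in XX KO at E11.5, and all 6 were higher in XY KO and none passed in XX KO at E12.5. Of 6 germ cell genes none passed at E11.5, and 2 were lower in each sex at E12.5. None of 5 tested erythroid genes passed in either sex at either stage. The part of these cell types in the levels of the 9 genes was not tested.

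The genes whose pattern over the 12 libraries of E12.5 was most like the mean of the 9 members included, by Pearson's r, Pamr1 (0.9726), Cdhr2 (0.9714), Dao (0.9706), Glyat (0.9684), Cldn10, Kif12, Tinag, Xpnpep2 and Hpn (0.9584). Dao, which encodes D-amino acid oxidase, averaged 0.0720 CPM in XX controls, 3.13 in XX KO, 0.0289 in XY controls and 1.05 in XY KO. Cdhr2, a cadherin of the brush border, averaged 0.252, 2.32, 0.0144 and 0.693 CPM in the same order. Against the mean of the other 8, Slc34a1 (0.9527), Slc6a18 (0.9496) and Cdh16 (0.942) were the closest members and Cubn (0.4505) the farthest. At E11.5 the closest genes included Cpne5 (0.9591), Gsn (0.9492), Zfp64, Cyth3, Pdk2, Gjb1, Osbpl3 and Abhd4 (0.9036). Among members, Cdh16 (0.9161) was then the closest and Slc6a18 (0.4456) the farthest. The 12 points share genotype groups, and these values are descriptions.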

How the data were processed

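The authors aligned paired reads to mm10 with Subread and assigned them to genes with featureCounts. The deposited values are whole-number raw counts, with a table for each stage. The gene models, the strand setting and the handling of multi-mapping reads are not given in the sources used here. Deposited tables hold 12 further columns of per-sample values from Foxl2 mutants, which were not used. The members and the gene lists were chosen with earlier results of these data known.

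Genes with 1 CPM or more in 2 or more libraries of a stage were tested, 14217 genes in the E11.5 table and 14348 in the E12.5 table. The 12 libraries of a stage were fitted together in edgeR, with 1 coefficient per genotype (R 4.3.3, edgeR 4.0.16, limma 3.58.1), with TMM normalization and the robust quasi-likelihood test. P-values were adjusted over all genes tested by the Benjamini-Hochberg method (FDR, threshold 0.05), and SE was taken as the absolute log2 fold change over the root of F. On simulated counts the test recovered 78.5% of 200 genes with a 2-fold change at E11.5 and 68% at E12.5. These genes were drawn at random from all genes tested, so the shares need not hold for members with few reads. Levels are CPM, counts per 1000000 of the TMM-scaled library size, with mean ± SD over 3 libraries. A group was called at the floor where none of its libraries had over 3 counts, and folds against it are lower bounds, the mean level over the CPM of 3 counts per library. Floors cover counting error only, whereas SE and SD take in the spread between libraries. The sources do not say that libraries came from separate litters, so p-values measure the spread between these samples. Named genes were all 9 members, per stage the 10 genes nearest to their mean profile by Pearson's r, the 4 most abundant tested genes of each list, and other proximal tubule genes past the threshold (up to 6 of largest size). Dpep1, Krt19, Pax8, Pkhd1, Wnt9b and Folr1 are named outside this rule, chosen after their values were seen. Some genes that the rule names are not reported here. Alternatives were library sizes without TMM, no filter on low counts, the replicate number as a block, only the 6 libraries compared, leaving out each library in turn, and DESeq2 1.42.0. Labels give no litter, batch or day, and in no pair of groups did all same-numbered libraries deviate together (r over 0.1 in each pair), so the numbers were not taken to pair the samples. Seed matches were searched in the 3′ untranslated region of the transcript with the longest coding sequence of 21660 genes, and like length means 0.8 to 1.25 times.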

Additional observations from a re-analysis of the deposited data

How the results depend on the processing

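Of 81 log2 fold changes of the 9 members over all comparisons, 25 changed sign under at least 1 alternative, of which 1 was among the 18 that compare KO with control at E12.5. Normalization by library size alone, no filter on low counts and the replicate block changed no count of members past the threshold by more than 1.5 times. With the replicate block 1, 0, 0, 0 and 0 members passed at E11.5 (XY KO, XX KO, controls by sex, KO by sex and the interaction) and 8, 7, 2 and 0 at E12.5, and over all genes 1704 instead of 1804 passed in XY KO at E11.5. For XX against XY controls at E12.5 a fit to the 6 libraries compared called 1 member instead of 2, since fewer genes could be tested, and for XX KO against XY KO DESeq2 called 1 instead of 0. Leaving out 1 library at a time moved the number of members called, at E11.5, from 0 to 3 in XY KO, 0 to 5 between control sexes and 0 to 2 between KO sexes, and at E12.5 from 4 to 8 in XY KO, 0 to 8 in XX KO and 0 to 2 between KO sexes. In XY KO at E11.5 these fits moved Cdh16 from -0.26 to 0.18, Lrp2 from -0.37 to 0.19, Cubn from -0.35 to 0.29 and Hnf4a from -0.62 to 0.31 on the log2 scale, with the highest values without the second XY control. At E12.5 they moved Cubn in XX KO from -0.88 to 0.0048, and Lrp2 from -0.081 to 0.35 between control sexes and from -0.19 to 0.42 between KO sexes. The cause of these shifts was not tested. Depth limits Slc6a18, Slc34a1, Keg1 and Hnf4a in E12.5 controls, whose levels are known only to lie at or below about 3 reads per library, and the first XY KO library, with 2 to 7 reads of these genes.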
